A study of Gasterosteus aculeatus with 18 samples.

Results

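Threespine stickleback embryos kept at the highest dose of cortisol were compared with untreated embryos, as the rule of the comparison sets out, in 6 high pools (10 µg/L) and 6 control pools (0 µg/L) joined in 6 pairs by the replicate number in their titles. These are 12 of the 18 pools sequenced, and the other 6 were low pools (5 µg/L). The low pools enter the estimate of spread and the means over 18 pools, on which the gene filter and the abundance classes rest. Their values are also given beside the named and the called genes. Every pool held 10 eggs of wild-type Gasterosteus aculeatus taken 72 hours after fertilization. The design text describes the doses as standing for baseline, a level that predators bring on, and a level beyond the physiological range, and the labels name the agent as cortisol derived from the mother. Of 17253 genes in the table, 16103 with a mean normalised value of at least 11.4 over the 18 pools were tested and 1150 were left out; the lowest mean kept was 11.44 and the highest left out was 11.39.

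Cortisol is the main glucocorticoid of bony fish. It enters cells, binds the glucocorticoid receptor or the mineralocorticoid receptor, and the hormone and receptor together act on DNA as a transcription factor that raises some genes and lowers others. Fish eggs receive cortisol from the mother with the yolk, and a stressed female can pass on more of it. The title of the study names the ABC transporters, membrane pumps that move steroids and many other compounds out of cells, as a buffer of the embryo against that hormone. The table names genes by Ensembl identifier only, and 0 of its 17253 identifiers are in the reference gene table, so the ABC transporters, the receptor's known targets and the markers of embryonic tissues could not be picked out, and the labelled tissue could not be checked. Because gene names are lacking, 2 identifiers are printed in each direction and all other genes are described by count, size and abundance. In whole eggs, fewer cells of a type and less RNA per cell cannot be told apart.

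The values are the authors' normalised read counts, rounded to whole numbers. Control columns summed to 8.72 to 13.3 M and high columns to 8.58 to 15.2 M. The reads behind them, estimated from the regular gaps that scaling leaves in whole numbers, came to 10.49 ± 0.529 M (SD, n = 6) in control and 10.99 ± 0.680 M in high pools, and 5 of 6 pairs had more in the high pool (two-sided exact sign-flip test, p = 0.0625; adjusted p = 0.5625 over 9 such tests). The estimate for high pool 2, in 1 of these 5 pairs, was not clear (log-likelihood gap of 22.1, where over 40 was taken as clear). The high pool of number 3 stood apart, where 1220 genes had values of at most 5 while the remaining high pools had 438 to 802 such genes. Nothing in the labels says that the pools came from separate clutches, and p-values therefore cover only spread among these samples, which may be technical. In the limma tests below it is the spread left once differences between replicate numbers are taken out. The median residual SD on the log2 scale was 0.199 with these differences taken out and 0.451 with them left in.

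A small share of the genes was called changed between high and control pools, mostly with moderate sizes. Of 16103 genes, 117 rose (0.727%) and 71 fell (0.441%) with high cortisol, together 188 (1.17%), in limma with the replicate number as a block and a Benjamini-Hochberg adjusted p under 0.05. The larger number of higher genes turned under some settings, to 289 higher and 313 lower with sample weights, 118 and 131 without high pool 2 and 61 and 73 without number 2. At an unadjusted p under 0.05 there were 1266 higher and 1381 lower genes of the 16103. The count called depends on the threshold (506 at an adjusted p under 0.10), so it does not give the number of genes that changed. The higher genes rose by 1.24-fold to 4.23-fold, with quartiles of 0.43 and 0.75 on the log2 scale. The lower genes fell by 1.24-fold to 2.53-fold, with quartiles of 0.47 and 0.81. A change of over 1.5-fold was found in 46 of the 117 higher and 33 of the 71 lower genes, and one of over 3-fold in 4 higher and 0 lower genes. Fold changes are computed from log2(value + 1), where the added 1 makes the change of scarce genes look smaller.

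The 188 calls rest on the pairing, and their number moved when single pools were left out. Without the block limma called 0 genes (0%), with 158 at an unadjusted p under 0.05 against 2647 with the block. The blocked count was 97 when only control and high pools were fitted. As covariates, the column total gave 440 calls, the tally of genes at or under 5 gave 39 and the estimated reads gave 2. Removal of control pool 2, 3, 4, 5 or 6 left 54, 24, 68, 77 and 119 calls, and removal of high pool 1, 3, 5 or 6 left 86, 64, 23 and 54. The count did not fall without control pool 1 (188), high pool 2 (249) or high pool 4 (242). Of the 188 genes, however, only 146, 142 and 159 were still called in these fits, in the same order. Counts in the other fits can likewise hold genes outside the 188. The count was 84, 134, 18, 94, 52 and 45 when every pool of number 1, 2, 3, 4, 5 or 6 was left out. The sizes of the 188 genes moved less than their number. The choice of these genes favours this, since they were called in the same pools for changes large beside their errors. Their median change was 0.54 on the log2 scale with a median SE of 0.11; it was 0.52 with an SE of 0.14 when the estimated reads were in the fit, 0.50 with an SE of 0.12 when the tally of genes at or under 5 was, and 0.54 with an SE of 0.33 without the block. All 188 kept their direction in each fit with a covariate. The block leaves the estimates themselves as they are and changes only their errors.

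The 4 named genes were picked among called genes with the same direction in 6 of 6 pairs. That agreement was a condition of the choice and is no result about them. The largest rise belonged to ENSGACG00000012454. Its normalised read count ran from 2 through a median of 71 to 207 in control pools and from 87 through 250.5 to 377 in high pools. The ranges overlapped, but each high pool lay above the control pool of its number. In pairs 1 and 6 the values went from 115 to 248 and from 89 to 253, while pair 2 went from 2 to 87 and pair 5 from 30 to 310. Pairs 3 and 4 had the smallest steps, from 207 to 377 and from 53 to 94. The log2 change was 2.08 ± 0.42 (SE; limma adjusted p = 0.0266), or 4.23-fold, and single pairs ranged from 0.81 to 4.87. In low pools it had a median of 40.5 (range 15 to 264). The adjusted p rose to 0.283 with the estimated reads as a covariate and to 0.1005 with a robust fit. Removal of control pool 3 or 5 raised it to 0.0723 and 0.0652, and removal of high pool 5 or 6 to 0.0997 and 0.0514.

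Among the most abundant genes that rose, the change was a fraction of that. ENSGACG00000009867, the higher gene with the largest mean, ran from 2232 through a median of 2525.5 to 3770 in control pools and from 2360 through 3257.5 to 5411 in high pools. Again the groups overlapped while all 6 pairs moved upward, by 0.035 in pair 2 and 0.080 in pair 4 and by 0.37 to 0.63 on the log2 scale in the other pairs. The log2 change was 0.36 ± 0.080 (SE; limma adjusted p = 0.0362), which is 1.28-fold. Low pools had a median of 2651 (range 2131 to 4763). The call was lost when the control pool, the high pool or all pools of number 1, 3, 5 or 6 were left out, with an adjusted p of up to 0.153. It was 0.126 with the tally of genes at or under 5 as a covariate and 0.265 with the estimated reads as a covariate.

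The largest fall was seen in a gene of low abundance. ENSGACG00000010677 ran from 5 through a median of 21.5 to 39 in control pools and from 1 through 7 to 25 in high pools. Pair 3 fell from 15 to 1 and pair 2 from 32 to 25, so the log2 differences of the pairs ranged from -3 to -0.34, all in 1 direction. The log2 change was -1.34 ± 0.30 (SE; limma adjusted p = 0.0362), a 2.53-fold decrease. Values of 1 and 2 in high pools 3 and 1 leave the size of this change imprecise. Low pools had a median of 19 (range 7 to 27). The call was lost without control pool 2, 3, 4, 5 or 6 or high pool 1, 3, 5 or 6, with an adjusted p of up to 0.124. With the tally of genes at or under 5 as a covariate the log2 change was -0.93 and the adjusted p 0.134, and the adjusted p was 0.234 with the estimated reads as a covariate.

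The lower genes also included some of the most abundant transcripts in the eggs. ENSGACG00000013876 ranked 121 among the 16103 tested genes by mean value. It ran from 7216 through a median of 11125.5 to 41942 in control pools and from 2717 through 6052.5 to 25071 in high pools. Pool 2 was the highest and pool 3 the lowest in both groups, and every pair fell, by 0.28 in pair 4 and by 1.41 in pair 3 on the log2 scale. The log2 change was -0.83 ± 0.14 (SE; limma adjusted p = 0.0105), a 1.77-fold decrease. Low pools had a median of 15676.5 (range 6985 to 34589). Its adjusted p was 0.0760 with the estimated reads as a covariate, 0.0507 without control pool 3 and 0.0544 without high pool 5. Of the 4 named genes, this one alone kept its call when low pools were left out of the fit, and none kept it without the variance trend (adjusted p = 0.0591 to 0.0993) or without the block (adjusted p = 1).

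**Figure D1:**
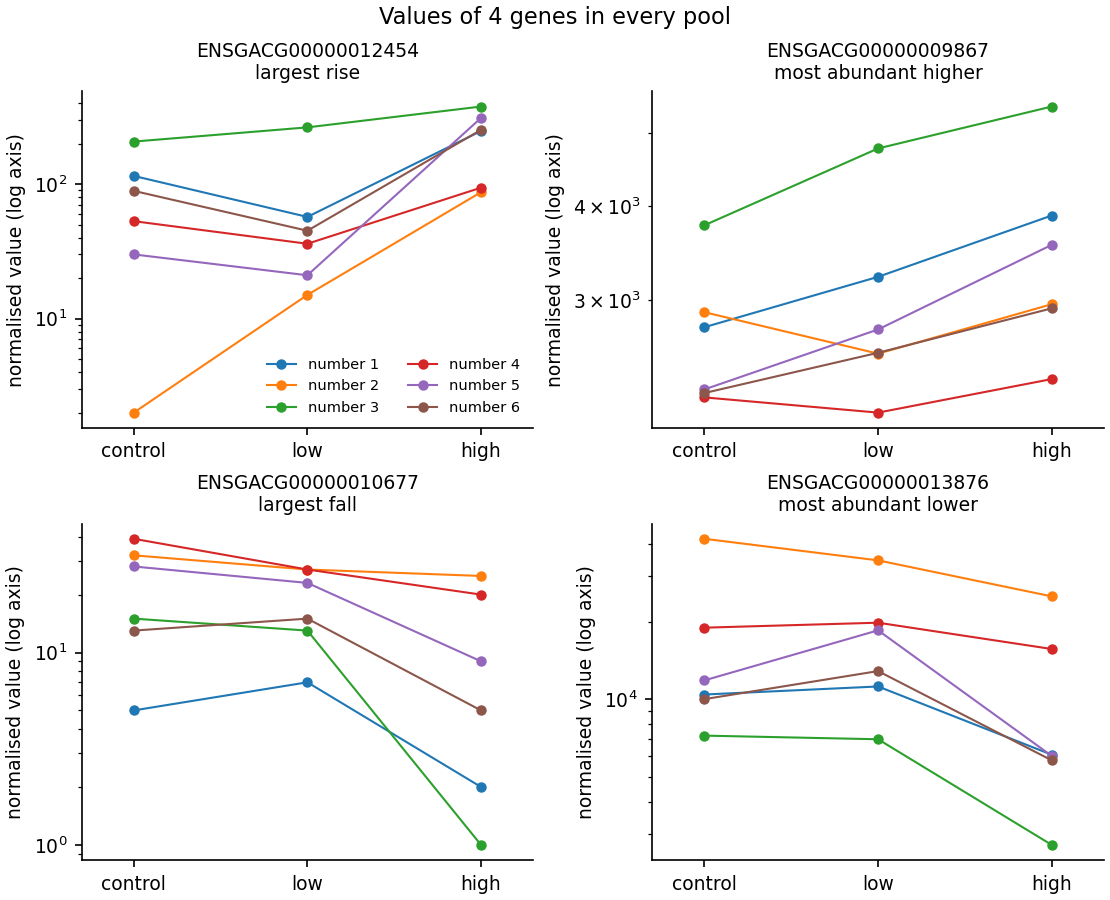
Normalised value (log axis) of the 4 named genes in the control, low and high pool of each replicate number; lines join pools with the same number. The high pool lies beyond the control pool of its number in 6 of 6 pairs of each gene, which was a condition of their choice. The ranges of the 2 groups overlap.

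Separate ranges were rare. All 6 high pools lay above all 6 control pools in 1 of 16103 genes (0.00621%) and below them in 7 (0.0435%), and the overlap of the groups was broken in 0 of the 117 higher and 1 of the 71 lower genes. That lower gene spanned 719 to 1576 in control and 443 to 601 in high pools, with a log2 change of -1.002 ± 0.14 (SE; limma adjusted p = 0.00284). Pools of the same group differed by as much. The median SD between control pools on the log2 scale was 0.60 for the higher and 0.66 for the lower genes, beside median changes of 0.52 and 0.58.

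A change of more than 1 on the log2 scale was found in 53 genes (0.329%), 21 higher and 32 lower, and 23 of them passed the test (0.143%). Those that passed had a median normalised value of 72.2, and their median SE was 0.25 against 0.39 for the 30 that did not pass. The gene with the largest change among all tested genes, ENSGACG00000012454, was among the called ones. Over all tested genes the median absolute change was 0.12, and 99% of genes changed by less than 0.78.

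The called genes were found in every class of abundance, and their median size was smaller in the more abundant classes. No gene with a larger mean than ENSGACG00000013876 was called, and this gene fell by 0.83 on the log2 scale. The higher genes had means from 14.2 to 3071 with a median of 256, the lower genes from 17.0 to 14757 with a median of 316, and the median of all tested genes was 177. Of genes with a mean over 1000, 10 were among the higher and 20 among the lower, out of 1780 tested. By mean log2 value, 11 of 2313 genes were called under 5 (0.476%), 37 of 4600 from 5 to 7 (0.804%), 88 of 5721 from 7 to 9 (1.54%) and 52 of 3469 at 9 and over (1.499%). The median size of the called genes in those classes was 1.22, 0.85, 0.50 and 0.49 on the log2 scale in the same order. The residual SD of all genes fell alongside, from 0.41 to 0.24, 0.17 and 0.14, so that a change had to be larger to be called in a scarce gene. Higher calls outnumbered lower ones from 7 to 9, with 62 against 26, while at 9 and over there were 25 higher and 27 lower.

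**Figure D2:**
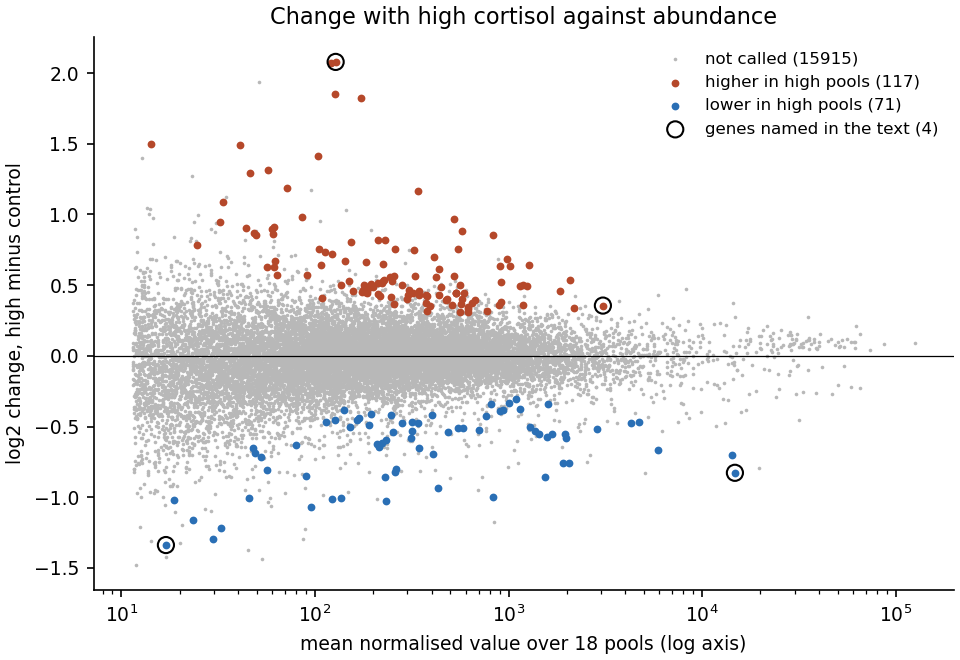
Log2 change from control to high pools against the mean normalised value over 18 pools (log axis), 1 point for each of 16103 tested genes; red and blue points are the 117 higher and 71 lower genes, rings mark the 4 named genes. The median size of called changes was 1.22 at a mean log2 value under 5 and 0.49 at 9 and over. Single genes depart from this: ENSGACG00000013876, the called gene with the largest mean, fell by 0.83.

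As a share of all normalised reads the called genes were a small part. The 117 higher genes took 0.394% of the column total in the median control pool (0.223% to 0.571%) and 0.564% in the median high pool (0.367% to 0.730%). The 71 lower genes took 0.711% (0.447% to 1.43%) in control and 0.473% (0.237% to 1.07%) in high pools. These shares describe genes chosen for this difference and are given without a test.

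At the low dose the median of the higher genes and that of the lower genes both lay below the control level. Low and high pools are both set against the same 6 control pools, so the values are given side by side only. The 117 higher genes had a median low minus control difference of -0.037 on the log2 scale (quartiles -0.16 and 0.097), with 50 above 0 and 67 below. The 71 lower genes had a median of -0.11 (quartiles -0.30 and 0.046), with 48 below 0 and 23 above. Without the same values for all tested genes beside them, these do not set the called genes apart at the low dose.

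In the scaled values no abundance class shifted in a direction shared by all 6 pairs. The median log2 change of all tested genes was -0.0087. Scaling can hold this median near 0, so it cannot show whether all genes shifted together. Scarce genes (mean log2 under 5) had a median high minus control difference of -0.24 in pair 3, -0.21 in pair 5 and -0.067 in pair 4, but of 0.037 in pair 1, 0.067 in pair 6 and 0 in pair 2. Abundant genes (9 and over) had medians of the opposite sign in the 5 pairs other than pair 2, at 0.042, 0.096 and 0.058 in pairs 3, 5 and 4 and at -0.040, -0.052 and -0.070 in pairs 1, 6 and 2. The mean over pairs was -0.068 ± 0.13 (SD, n = 6) for scarce and 0.0055 ± 0.068 for abundant genes, and neither passed the test against 0 (two-sided exact sign-flip tests, p = 0.375 and 0.844; adjusted p = 0.5625 and 0.844). From 7 to 9 the median was above 0 in 3 pairs and below it in 0, with a mean of 0.0098 ± 0.011 (exact sign-flip test, p = 0.25; adjusted p = 0.5625). From 5 to 7 it was above 0 in 2 pairs and below it in 3, with a mean of -0.026 ± 0.051 (exact sign-flip test, p = 0.3125; adjusted p = 0.5625). The smallest p of such a test over 6 pairs is 0.03125, which on its own would not pass after adjustment over 9 tests. A shift shared by the pairs could therefore go undetected. With single numbers left out the scarce mean ranged from -0.095 (without 6) to -0.034 (without 3), and the abundant mean from -0.013 (without 5) to 0.021 (without 2).

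**Figure D3:**
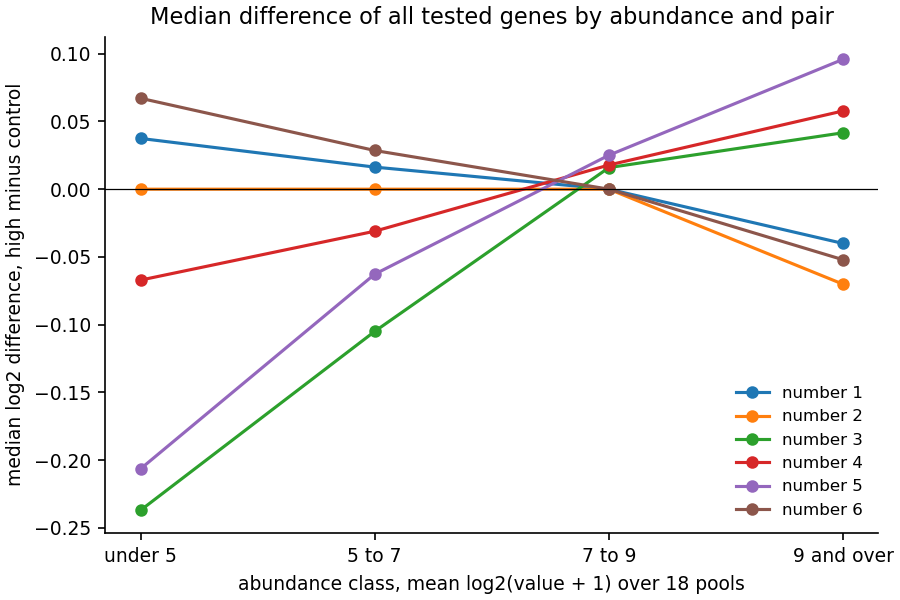
Median log2 difference, high minus control, of all tested genes in 4 classes of mean log2(value + 1), with 1 line for each replicate number. Lines of numbers 3, 4 and 5 climb from scarce to abundant genes, and those of 1, 2 and 6 do not.

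Some values for whole libraries split along the same pairs and others did not. The 100 most abundant genes, picked in each library by itself, took a larger share in the high pool of pairs 3, 4 and 5. Their share was smaller in pairs 1, 2 and 6, with a mean difference of 0.511 ± 2.57 percentage points (SD; two-sided exact sign-flip test over 6 pairs, p = 0.625, adjusted p = 0.703). The mean difference was -0.316 without number 5 and 1.28 without number 2. Column totals were likewise larger in the high pool in pairs 3, 4 and 5 and smaller in the others. Genes with values of at most 5 were more numerous in the high pool of the former pairs, 1220 against 738 in pair 3, 528 against 418 in pair 4 and 802 against 489 in pair 5. They were fewer in the latter, with a mean difference of 120.5 ± 231 genes (exact sign-flip test, p = 0.344, adjusted p = 0.5625), which was 48.2 without number 3. Genes at 0 did not split in this way. They were more numerous in the high pool of 4 pairs and fewer in 2, with a mean difference of 29.7 ± 55.5 (exact sign-flip test, p = 0.25, adjusted p = 0.5625). The estimated reads, larger in the high pool of 5 pairs, were smaller there in pair 3 (10.6 against 10.9 M). The part of these differences in the calls was not tested beyond the covariates given above.

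The differences between high and control pools were uneven in size over the pairs. All tested genes enter here, called or not, so the spread between single pools is part of these values. Across all tested genes the SD of the high minus control differences was 0.32 in pair 1, 0.33 in pair 6, 0.35 in pair 4, 0.45 in pair 2, 0.51 in pair 3 and 0.54 in pair 5. Differences over 1 on the log2 scale numbered 226 in pair 6, 242 in pair 1, 265 in pair 4, 451 in pair 2, 887 in pair 3 and 967 in pair 5. Pair 3 held 756 decreases and 131 increases of that size, and pair 5 held 635 and 332. Pair 2 was the reverse, with 201 decreases and 250 increases. The high pools of pairs 3 and 5 also had the most genes at values of at most 5, 1220 and 802. The part of this in the unevenness was not tested.

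The called genes followed the pairs unequally in the 2 directions. Their evenness is favoured by the test that chose them, since genes that differ between pairs have larger errors. A rise in 6 of 6 pairs was seen in 108 of the 117 higher genes and in 785 (4.87%) of all tested genes. A fall in 6 of 6 was seen in 64 of the 71 lower genes and in 720 (4.47%) of all. The median difference of the higher genes was 0.83 in pair 5, 0.69 in pair 2, 0.54 in pair 4, 0.51 in pair 3, 0.33 in pair 6 and 0.31 in pair 1. For the lower genes it was -0.84 in pair 3, -0.73 in pair 5, -0.56 in pairs 1 and 6, -0.49 in pair 2 and -0.28 in pair 4. Pair 5 gave the largest step of 54 and pair 2 of 37 higher genes, and pair 1 gave the smallest step of 43. Among the lower genes pair 3 gave the largest step of 26 and pair 5 of 20, and pair 4 the smallest of 36. In the genes with 6 of 6 pairs in 1 direction, the median ratio of the largest to the smallest pair difference was 4.92 in higher and 5.22 in lower genes. A difference over 0.2 in every pair was reached by 56 higher and 35 lower genes, and over 0.5 by 11 and 3. These last counts were made in the called genes only. Without a share of all tested genes beside them, they do not show that the called genes were more even.

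Calls made without a pair were then read in that pair, whose pools had no part in the choice. Genes called higher in the fit on the other 5 replicate numbers were above 0 in the pair left out in 59 of 65 cases for pair 1, 49 of 61 for pair 2, 14 of 14 for pair 3, 44 of 50 for pair 4, 27 of 28 for pair 5 and 32 of 34 for pair 6. That is 80.3% to 100% of them, beside 46.9% to 51.8% of all tested genes. Genes called lower were below 0 in 17 of 19, 44 of 73, 3 of 4, 40 of 44, 22 of 24 and 9 of 11 cases in the same order of pairs. Pair 2 stood lowest here, at 60.3% beside 50.7% of all tested genes. In the other pairs it was 75% (3 of 4 genes) to 91.7%, beside 46.3% to 51.4% of all tested genes. Summed over the 6 readings, 225 of 252 higher and 135 of 175 lower calls had the same sign, 89.3% and 77.1%. The 6 fits share most of their pools, so a gene can count in several of them. The pair left out is also not an independent reading, since the differences of some pairs correlate, as given below. Whether the shared sign goes with cortisol or with other differences between the libraries was not tested.

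The sizes in the pair left out were smaller than in the fit that made the call, except for the higher genes of pair 5. For the higher genes the median was 0.70 in the fit and 0.25 in the pair left out for pair 1, 0.57 and 0.52 for pair 2, 0.93 and 0.56 for pair 3, 0.68 and 0.40 for pair 4, 0.63 and 0.64 for pair 5 and 0.78 and 0.49 for pair 6. For the lower genes it was -0.66 and -0.39 for pair 1, -0.66 and -0.12 for pair 2, -0.92 and -0.86 for pair 3, -0.69 and -0.19 for pair 4, -0.69 and -0.44 for pair 5 and -0.76 and -0.62 for pair 6. Every one of these 12 medians had the sign of its call, while the median of all tested genes in a single pair stayed between -0.017 and 0.015.

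**Figure D4:**
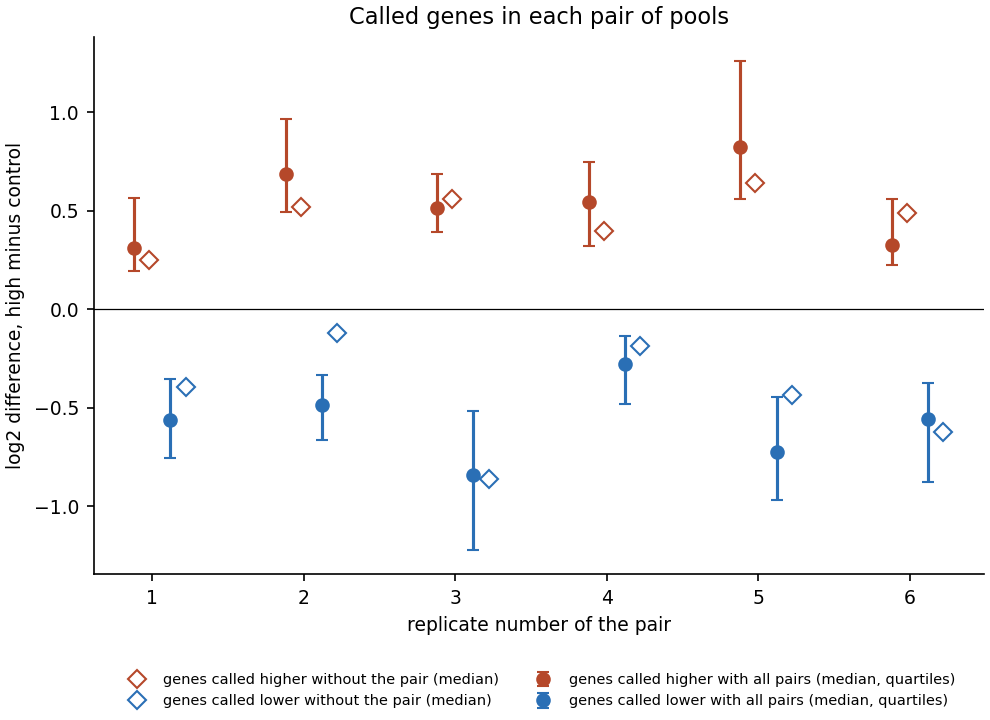
Log2 difference, high minus control, in each pair of pools. Filled points with bars give the median and quartiles of the 117 higher (red) and 71 lower (blue) genes called with all pairs, open diamonds the median of genes called without that pair; all 12 diamonds have the sign of their call, and the lower genes in pairs 2 and 4 lie nearest to 0.

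Over all tested genes, the called ones included, the pairs resembled each other little, except within a few sets. Across the 16103 tested genes, which are not independent replicates, the differences of 2 pairs correlated with a mean r of 0.14 over the 15 combinations, from 0.013 for pairs 4 and 6 to 0.47 for pairs 1 and 6. Pairs 3, 4 and 5 correlated at 0.28 to 0.39 among themselves, and all combinations other than these 4 were at 0.13 or less. No 2 pairs share a library. Among the 3469 genes with a mean log2 of 9 and over, pairs 1 and 6 reached r = 0.84, pairs 3, 4 and 5 reached 0.52 to 0.58, and pairs 2 and 4 were lowest at -0.055. The pools numbered 1 and 6 were also alike in level, as their deviations from the group mean correlated at r = 0.74 in control and 0.77 in high pools. Whether these numbers share a clutch, a day or a preparation is not stated in the labels and was not tested.

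**Figure D5:**
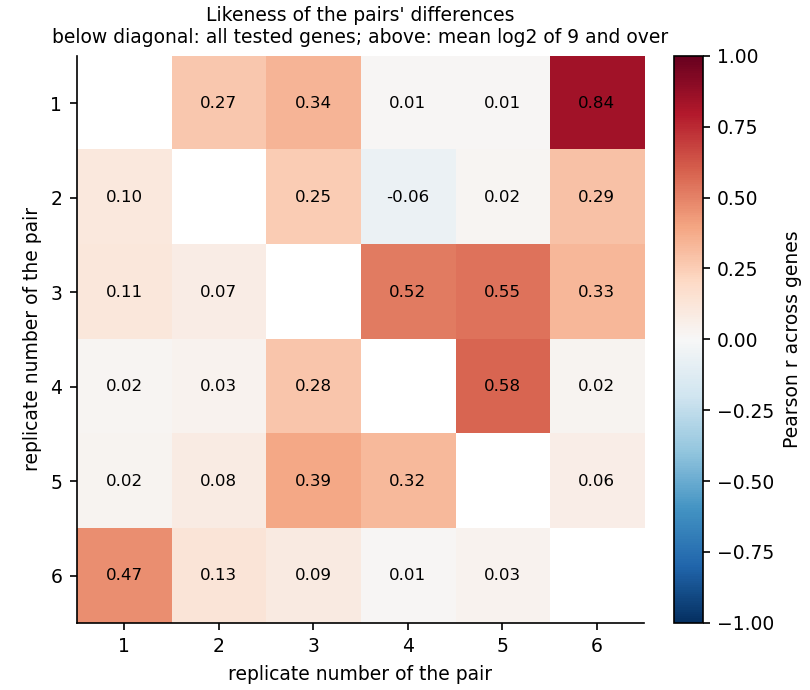
Pearson r across genes between the high minus control differences of 2 pairs, for all 16103 tested genes below the diagonal and for the 3469 genes with a mean log2 of 9 and over above it. Pairs 1 and 6, and pairs 3, 4 and 5, stand out in both.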

How the data were processed

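RNA of 18 egg pools was sequenced and the authors deposited 1 table of values for 17253 genes. By the table's name these are normalized counts, and their regular gaps show scaling followed by rounding by the authors; the deposited values are handled as a score. How they were scaled, the genome build and the annotation: not given in the sources used here. The submitters' processing notes name edgeR, HTSeq, Cuffdiff, Cufflinks 2.2.0, Bowtie2 2.1.0, TopHat2 2.0.8, TopHat and FastQC, with no role for each.

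Since the reads were not recovered, no count model was used. Genes with a mean over the 18 columns of at least 11.4 (set from the mean column total) entered limma 3.58.1 (R 4.3.3) on log2(value + 1), with a variance trend, all 3 groups fitted together and the replicate number as a block. The pairing is set by the comparison and not by the labels. In these data, deviations from the group means correlated at r = 0.67 to 0.88 between high and control pools of the same number, and in 12 of 12 pools the best match in the other group had the same number. Over all 3 groups, pools of different numbers reached r = 0.76 between groups and 0.77 within a group. Both lie above the lowest value for the same number. Single values per library were tested with two-sided exact sign-flip tests over 6 pairs, whose smallest p is 0.03125, adjusted over 9 tests. For the estimated reads, the scaling factor that best explains the skipped or doubled whole numbers up to 300 was found for each column (Python 3.11.15). It was clear in 15 of 18 columns (log-likelihood over 40 above that of any factor not close to it). The others were high pool 2 and low pools 3 and 4. The procedures were tested on simulated data.

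The named genes are, in each direction, the called gene with the largest change and the called gene with the largest mean, among those with the same direction in 6 of 6 pairs. The comparison, the lists and the tests were chosen with earlier results of these data known. Gene lists by symbol could not be applied. Alternatives covered the block, the samples fitted, the trend, weights, covariates, pseudocount, filter, scaling, threshold and each pool left out; the estimated reads as a covariate and as a value per library were added after the data were seen.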

Additional observations from a re-analysis of the deposited data

Results flagged for a closer look

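In 23 groups of 6 values checked with Dixon's ratio, 4 held a value far from the other 5, where chance gives about 1.15. The values were taken without a log, whereas the gene tests used log2(value + 1). The figure for chance holds for values of normal spread, so no conclusion is drawn from the excess. In control pool 3, 738 genes had values of at most 5, while control pools of the remaining numbers had 418 to 530. In high pool 3, 207 genes were listed at 0, and 26 to 76 in the high pools of the remaining numbers. ENSGACG00000012454 stood at 264 in low pool 3, against 15 to 57 in the other low pools. ENSGACG00000013876 stood at 41942 in control pool 2, against 7216 to 18947 in the other control pools, and the high pool of that number was the highest high pool, too.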

How the results depend on the processing

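The count of 188 genes called between high and control pools was 0 without the replicate block (adjusted p = 1 for each named gene), 97 with control and high pools alone, 19 without the variance trend, 602 with sample weights, 440 with the column total as a covariate, 39 with the tally of genes at or under 5, 2 with the estimated reads, 506 at an adjusted p under 0.10 and 13 under 0.01. It ranged from 18 to 249 when pools were left out. It was 172 to 208 under 2 other pseudocounts, 2 other scalings, 2 other filters and a robust fit. The cause of these moves was not tested. The log2 changes of the 4 named genes kept their sign under every alternative in which they were tested. ENSGACG00000010677 was not tested when a mean of at least 50 was required. The median of scarce genes (mean log2 under 5) was 0.13 in place of -0.068 when a mean of at least 50 was required, which leaves few genes in that class. No value per library or class passed the threshold under any alternative run. With a pair left out the sign-flip test cannot reach 0.05. The shares of same-sign genes in the pair left out were 85.8% to 89.9% for higher and 72.7% to 80.4% for lower genes under 8 alternatives, and the mean r of the pair differences was 0.12 to 0.20.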
